A study of Mus musculus with 4 samples.

Results

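The collagen genes other than those of types I and XVII were taken from the tables that pair Sp6 intervals with genes in dental epithelium and dental mesenchyme of the mouse molar. Members are all gene names of the form Col, digits, a, digits, leaving out Col1a1, Col1a2 and Col17a1. The gene reference holds 41 such genes. Of these, 14 had an Sp6 interval in at least 1 tissue, and the other 27 were counted as absent. Sp6 (epiprofin) belongs to the SP/KLF zinc-finger transcription factors, and teeth do not form normally without it. Its occupancy was measured by chromatin immunoprecipitation with sequencing (ChIP-seq), in which DNA fragments bound by the factor are pulled down with an antibody and sequenced.

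The groups were an Sp6 library from the dental epithelium, an Sp6 library from the dental mesenchyme, an input library from the epithelium and an input library from the mesenchyme, 4 samples in all. All came from C57BL/6 mice on postnatal day 1, with tissue from 30 molars, no labelled mutation or treatment, and an antibody made in the submitters' laboratory. There was 1 library per group, so no value has a replicate error and no difference between tissues was tested. An interval is a region that the authors called in 1 library for a local excess of fragments, and its peak value is the deposited fragment density in its highest bin. Intervals with a listed gene are called annotated here, 2381 of 3811 in epithelium and 7211 of 11436 in mesenchyme. Read totals are unknown and scaling between libraries is not stated, so peak values of the 2 tissues are printed side by side as deposited. In bulk tissue, a factor bound in fewer cells and a factor bound less in each cell cannot be told apart. The files hold occupancy and no expression, so the labelled tissues could not be checked against marker genes.

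Collagens are extracellular matrix proteins made of alpha chains that wind into a helix. Fibrillar collagens form the main fibres of connective tissue, fibril-associated collagens decorate those fibres, type IV collagens form the network of basement membranes, and further classes form beaded filaments, anchoring fibrils or short-chain networks or span the cell membrane. Enamel is laid down without a collagen scaffold by epithelial cells, whereas the dentin and pulp that arise from the mesenchyme are rich in collagen.

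Sp6 intervals were listed for 7 of the 41 genes in epithelium (17.1%), where 8.92% of 21631 protein-coding genes had an interval. In mesenchyme they were listed for 14 of 41 (34.1%), where 21.4% of protein-coding genes had one. All 7 genes of the epithelium were among the 14 of the mesenchyme. Of the 1929 protein-coding genes with an interval in epithelium, 1783 also had one in mesenchyme, which is 8.24% of all protein-coding genes. With equal numbers of intervals, 2381 in each tissue and those of mesenchyme taken by peak value, the mesenchyme list covered 7 collagen genes, where 8.57% of protein-coding genes had an interval. Of these 7 collagen genes, 5 were in both tissues, and no share of all genes was taken for this count. In the upper 50% of intervals the epithelium had 4 collagen genes, where 4.72% of genes had an interval, and the mesenchyme had 13, where 12.1% did. In the full lists the 7 genes in both tissues were Col5a1, Col5a2, Col11a2, Col22a1, Col25a1, Col27a1 and Col28a1. The 7 genes with a mesenchyme interval alone were Col2a1, Col6a3, Col14a1, Col16a1, Col19a1, Col23a1 and Col24a1. Of the 4623 protein-coding genes with an interval in mesenchyme, 1783 also had one in epithelium and the rest had one in mesenchyme alone. The members had 10 intervals in epithelium and 25 in mesenchyme, and 0 of them touched an interval of either input library, as 0.42% and 0.139% of all annotated intervals did. With 17 input intervals for epithelium and 24 for mesenchyme, such contact could only be rare.

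Collagen genes are long, and long genes had intervals more often. The 41 genes had a median length of 121 kb in the reference, against 17.3 kb for all protein-coding genes. Up to 20 kb, 0 of 3 collagen genes had an interval in either tissue, where 3.72% of genes did in epithelium and 11.5% in mesenchyme. Among genes of 20 to 50 kb, 1 of 9 collagen genes had an interval in epithelium and 2 of 9 in mesenchyme, where 7.87% and 21.2% of genes did. Among genes of 50 to 100 kb, 0 of 3 and 2 of 3 did, where 15.0% and 34.6% of genes did. Among genes of 100 to 200 kb, 4 of 18 collagen genes (22.2%) had an interval in epithelium, where 24.4% of all 1437 genes of that length did. The same 4 collagen genes, Col5a1, Col5a2, Col27a1 and Col28a1, were the only collagen genes of that length with an interval in mesenchyme (22.2%), where 49.5% of all genes of that length had one. Above 200 kb, 2 of 8 collagen genes had an interval in epithelium (25%), where 37.6% of 990 genes did. In mesenchyme 6 of those 8 had one (75%), where 64.3% of genes did. Within length classes the collagen shares thus lay on both sides of the shares of all genes, and no test was made of any of these differences.

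**Figure D1:**
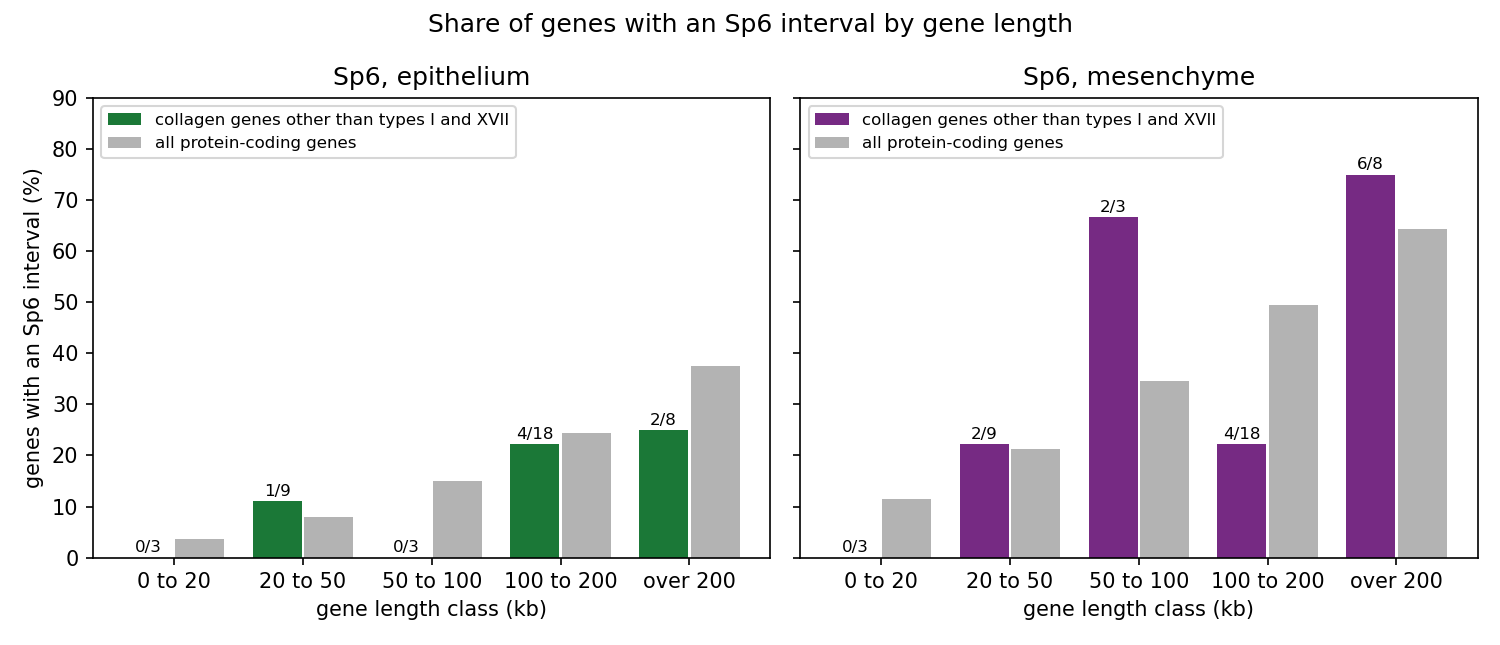
Share of genes with an Sp6 interval (y axis, %) by gene length class in kb (x axis), for the epithelium on the left and the mesenchyme on the right. Coloured bars stand for the 41 collagen genes, with the number occupied over the number in the class above each bar, and grey bars for all protein-coding genes. In mesenchyme the collagen bar is below the grey bar for genes of 100 to 200 kb (22.2% and 49.5%) and above it for genes over 200 kb (75% and 64.3%).

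The occupied genes fell in several collagen classes. The classes are small and were not matched for gene length. Of all protein-coding genes, 8.92% had an interval in epithelium and 21.4% in mesenchyme. As 26 of the 41 collagen genes are longer than 100 kb, the higher shares of long genes given above apply to many of them. Of the 9 fibrillar genes, 4 had an interval in epithelium and 6 in mesenchyme. Of the 9 fibril-associated genes, 1 had an interval in epithelium and 4 in mesenchyme, and of the 3 membrane-spanning genes 1 and 2 did. The beaded filament genes had an interval at 0 of 6 members in epithelium and 1 of 6 in mesenchyme. All 6 type IV genes of the basement membrane network (Col4a1, Col4a2, Col4a3, Col4a4, Col4a5 and Col4a6) were absent from both tables, although each is longer than 100 kb. Of all genes of 100 to 200 kb, 24.4% had an interval in epithelium and 49.5% in mesenchyme. Above 200 kb, 37.6% and 64.3% did. Also absent were Col7a1, which forms anchoring fibrils, the multiplexins Col15a1 and Col18a1, and the short-chain genes Col8a1, Col8a2 and Col10a1. The remaining absent genes were Col3a1, Col5a3 and Col11a1 of the fibrillar class, Col6a1, Col6a2, Col6a4, Col6a5 and Col6a6, and the fibril-associated Col9a1, Col9a2, Col9a3, Col12a1 and Col20a1. Col13a1, which spans the membrane, and Col26a1 completed the 27. An absent gene has no listed interval. At an unknown depth this does not show that Sp6 was not bound there, and the 1430 epithelium and 4225 mesenchyme intervals with no listed gene could not be assigned.

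The strongest intervals of the family lay inside Col28a1 and Col27a1 in both tissues. At Col28a1, which encodes a collagen with von Willebrand factor domains, fragments peaked at 69 in epithelium (chr6:7971732-7972350) and 138 in mesenchyme (chr6:7971658-7972550). These values ranked 114 of 2381 annotated intervals in epithelium and 162 of 7211 in mesenchyme. The peak centre lay 170.585 kb from the gene start in epithelium and 170.569 kb in mesenchyme, deep in a gene of 196.6 kb. A weak interval in mesenchyme, with a peak value of 19, lay 129.497 kb from the start and had no epithelium counterpart.

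Col27a1, a fibrillar collagen gene of cartilage and developing tissues, held a group of closely spaced intervals. Its strongest interval peaked at 57 in epithelium (chr4:62918585-62919187) and at 117 in mesenchyme (chr4:62918262-62919289). They ranked 234 of 2381 and 268 of 7211, and their centres lay 42.434 and 42.498 kb from the start. A weaker interval 29.186 kb from the start had 22 in epithelium, and 35 in mesenchyme at 29.346 kb. Between them an interval found in mesenchyme alone had a peak value of 39 at 35.01 kb (chr4:62911025-62911847).

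Col27a1 is the host gene of the microRNA miR-455, and the tables list 3 of its 5 intervals, 1 in epithelium and 2 in mesenchyme, for both. The strongest interval is also listed as downstream of Mirn455, the older name of Mir455, with its centre 0.996 kb from the microRNA's start in epithelium and 1.06 kb in mesenchyme. The interval of mesenchyme alone is listed 6.428 kb upstream of it. The mature microRNAs are shown because their hairpin lies between these intervals; they are RefSeq sequences on GRCm38.p6, chromosome 4, plus strand, written 5′ to 3′ with the seed (bases 2 to 8) in capitals. The arms carry different seeds.
mmu-miR-455-5p: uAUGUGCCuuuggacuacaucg
mmu-miR-455-3p: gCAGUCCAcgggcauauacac

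The type V genes, whose product starts and limits the width of type I fibrils, were occupied inside the gene body in both tissues. At Col5a2 the peak value was 38 in epithelium (chr1:45516245-45516874) and 70 in mesenchyme (chr1:45516218-45516943), with centres 43.583 and 43.551 kb from the start. A further mesenchyme interval with a peak value of 31 lay 41.295 kb from the start, and the gap between it and the epithelium interval was 1.66 kb. At Col5a1 the peak value was 19 in epithelium (chr2:27827351-27827959) and 41 in mesenchyme (chr2:27827322-27828267), with centres 85.427 and 85.475 kb from the start. The third type V gene, Col5a3, had no listed interval.

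Col11a2 was the only member of the 41 with an interval within 1 kb of its start in either tissue (2.44%), where 0.527% of protein-coding genes had such an interval in epithelium and 2.76% in mesenchyme. It encodes a chain of type XI collagen, a minor component of cartilage fibrils. Near the start the deposited peak value reached 16 in epithelium (chr17:34175770-34176259) and 42 in mesenchyme (chr17:34175636-34176339), and both centres lay 0.446 kb upstream of the start. These ranked 2235 of 2381 in epithelium and 2474 of 7211 in mesenchyme, so the epithelium interval was among the weakest of its library. The interval is also listed as downstream of Rxrb and upstream of Slc39a7. A second epithelium interval with a peak value of 14 lay past the gene, 29.81 kb from the start, and had no mesenchyme counterpart. A second mesenchyme interval with a peak value of 17 lay 7.71 kb upstream and overlapped a CpG island; its centre is closer to the starts of Slc39a7 and Rxrb than to that of Col11a2.

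The mesenchyme interval runs from 746 to 43 bases upstream of the deposited Col11a2 start. The 250 bases upstream of the RefSeq start (GRCm38.p6, chr17:34038888-34039137, plus strand) are shown because this is the only member with an interval within 1 kb of its start. Distances from Col11a2 to the starts of Rxrb and Slc39a7 differed between the table and the reference by at least 259 and 299 bases, so the place of this window within the mm9 interval is approximate. Capitals mark CCGCCC, the reverse complement of GGGCGG, the GC box that SP factors are known to bind.
Col11a2 upstream: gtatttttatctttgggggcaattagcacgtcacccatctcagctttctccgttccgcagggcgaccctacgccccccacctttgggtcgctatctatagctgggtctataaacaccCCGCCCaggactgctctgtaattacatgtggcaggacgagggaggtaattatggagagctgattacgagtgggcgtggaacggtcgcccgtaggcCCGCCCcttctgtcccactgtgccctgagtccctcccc

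Searched on both strands, the window held GGGCGG at 2 places, beginning 133 and 38 bases upstream of the start, and CACCC, the core of the box bound by many KLF factors, at 2 places. The window and its matches are counted from the RefSeq start. The peak centre, 446 bases upstream, and the end of the mesenchyme interval, 43 bases upstream, are counted from the deposited start. How far these starts differ is not known. It therefore cannot be told whether the window of 250 bases reaches the peak centre. Nor can it be told whether the GGGCGG match at 38 bases lies inside the interval. The matches are thus not shown to lie under the highest signal. Of the CACCC matches, 1 overlapped a GGGCGG match. GGGCGG was found in the 250 bases upstream of 20 of the 33 collagen genes that have a window in the RefSeq table (60.6%), where 43.2% of 17274 protein-coding genes held it. CACCC was found in 21 of the 33 (63.6%), where 53.4% of protein-coding genes held it. These matches describe letters in the windows only, and apart from Col11a2 the members had no interval within 1 kb of the start.

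The long transmembrane collagen gene Col25a1 had 2 epithelium intervals and 4 mesenchyme intervals, the most of any member in mesenchyme. Its interval upstream of the start peaked at 37 in epithelium (chr3:129880601-129881178), at 2.9 kb, and at 32 in mesenchyme (chr3:129880625-129881224), at 2.932 kb. It was the only shared collagen interval with a higher deposited value in epithelium, and 113 of all 2083 annotated pairs were higher there. The second epithelium interval had a peak value of 18 and lay just past the gene, 420.844 kb from the start, with no overlapping mesenchyme interval; the nearest, with a peak value of 33, was 4.39 kb away. The other mesenchyme intervals peaked at 48 and 28 in the gene body, at 97.132 and 262.508 kb.

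Among the fibril-associated genes, only Col22a1, whose product is found at tissue junctions, had an interval in both tissues. Its peak value was 25 in epithelium (chr15:71798839-71799394) and 64 in mesenchyme (chr15:71798832-71799510), inside the gene and about 65.535 and 65.471 kb from the start. A mesenchyme interval with a peak value of 43 lay 8.289 kb upstream of the start. Col14a1, which binds fibrils of type I collagen, had a single mesenchyme interval with a peak value of 56, 195.382 kb from the start (chr15:55334371-55334962). Col19a1 had a single one with 39, at 102.948 kb, and Col16a1 a single one with 36 past its end, at 56.916 kb. The Col16a1 interval is also listed as upstream of Pef1.

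**Figure D2:**
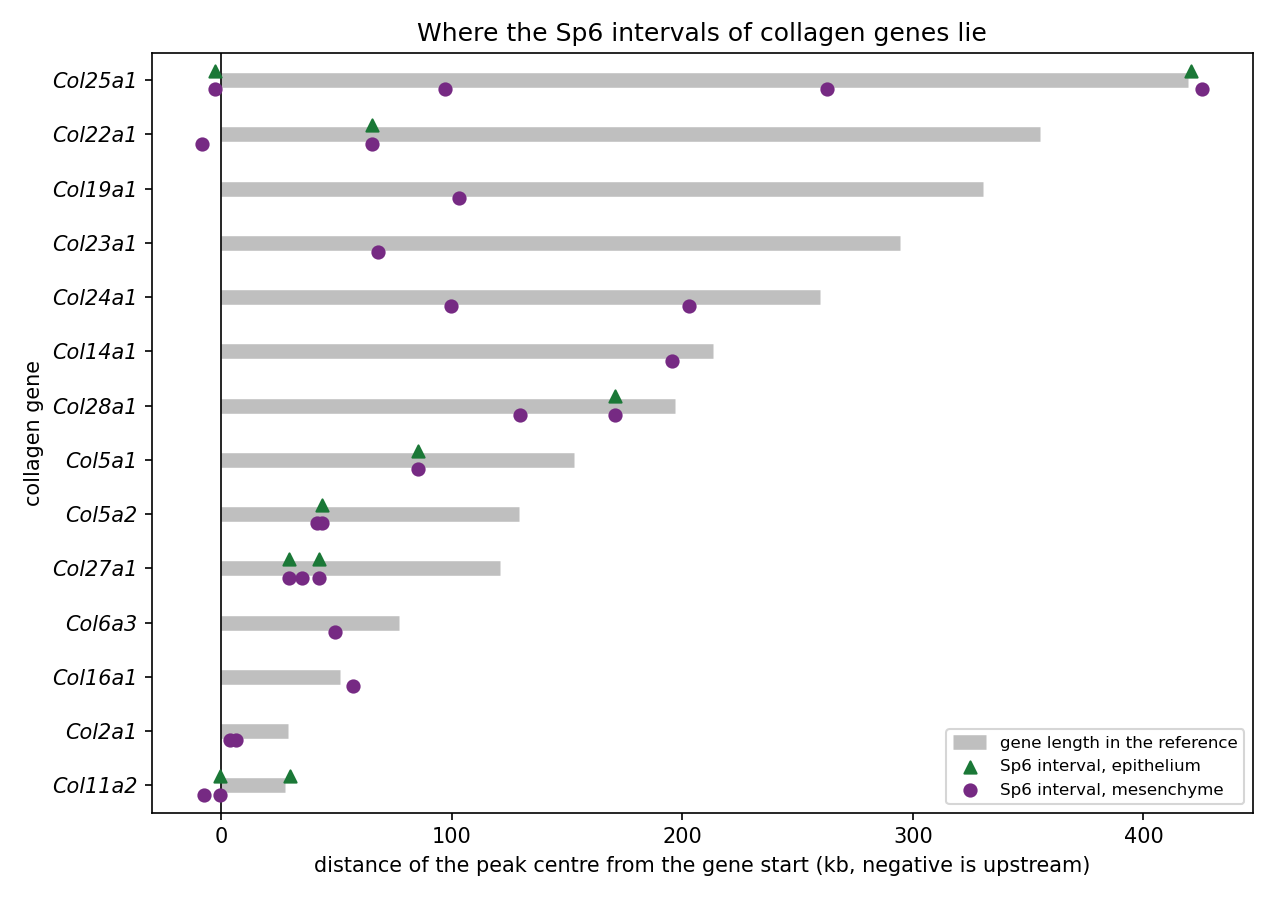
Distance of each peak centre from the gene start in kb (x axis, negative is upstream) for the 14 occupied collagen genes (y axis, longest at the top). Triangles are epithelium intervals, circles mesenchyme intervals and grey bars the gene lengths in the reference. Shared intervals stack at the same distance, and 8 of 10 epithelium and 19 of 25 mesenchyme intervals lie more than 20 kb from the start. In epithelium, all annotated intervals had a median distance to a listed start of 25739 bp, against 43008.5 bp for the collagen intervals. For mesenchyme these medians were 24070 bp and 56916 bp. Most annotated intervals thus also lay more than 20 kb away. The occupied collagen genes had a median length of 175 kb, against 17.3 kb for all protein-coding genes. Distances were not matched for gene length.

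The other genes of the mesenchyme alone had intervals of middle or low rank. Col24a1, a fibrillar gene, peaked at 47 and 24 in its gene body, 203.06 and 99.444 kb from the start. Col23a1, a transmembrane collagen gene, had 39 at 68.034 kb, and Col6a3, a chain of the beaded filaments, had 36 at 49.41 kb. Col2a1, the main fibrillar collagen gene of cartilage, had the lowest highest value of all 14 genes, with 23 at 6.468 kb and 18 at 3.94 kb, both inside the gene. No epithelium interval was listed for these genes.

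**Figure D3:**
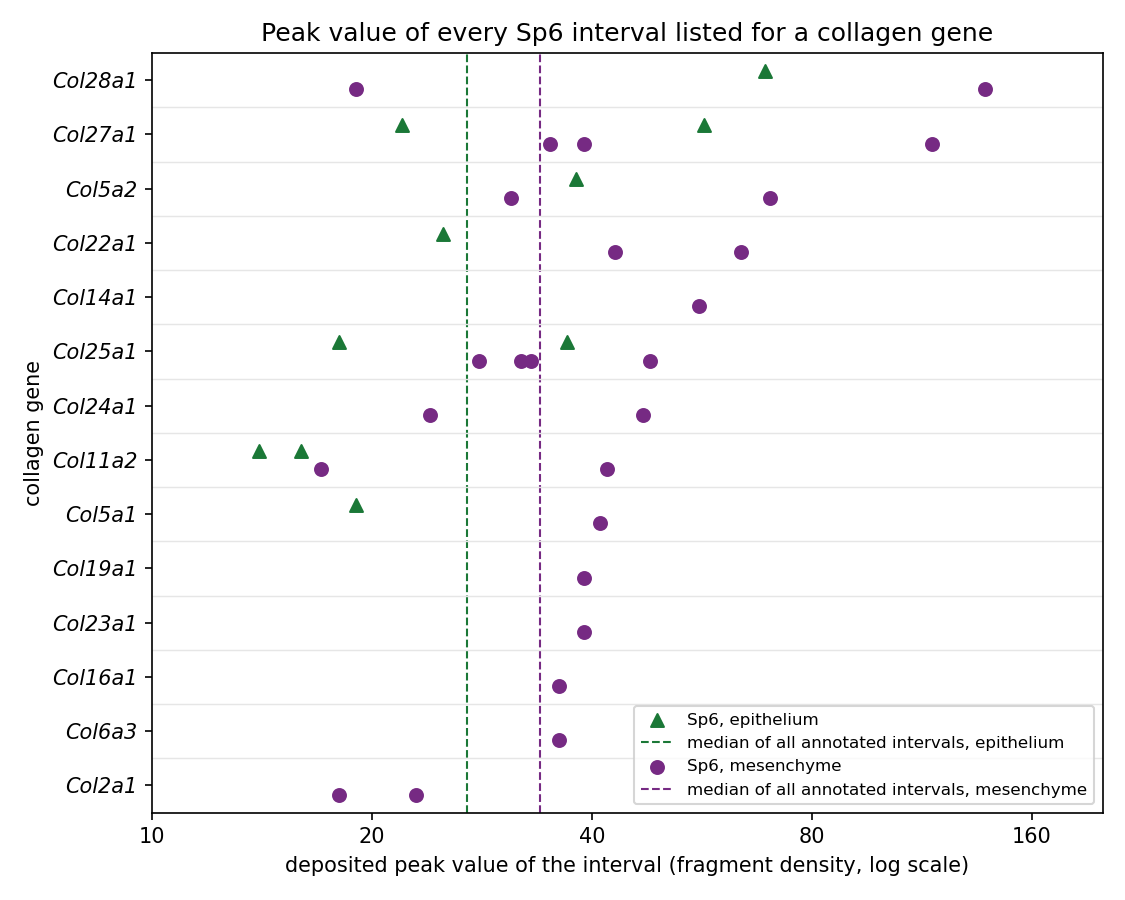
Deposited peak value (x axis, log scale) of every Sp6 interval of the 14 occupied collagen genes (y axis, ordered by the highest mesenchyme value), with triangles for epithelium, circles for mesenchyme and dashed lines at the median of all annotated intervals of each library (27 in epithelium, 34 in mesenchyme). Col28a1 and Col27a1 hold the highest values of both tissues, and both Col2a1 intervals lie below the mesenchyme median.

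As a group, the collagen intervals had peak values near those of their libraries. The median was 23.5 in epithelium (10 intervals, 14 to 69), where all annotated intervals had 27, and 39 in mesenchyme (25 intervals, 17 to 138), where all had 34. Above the library median lay 4 of the 10 in epithelium and 16 of the 25 in mesenchyme. Inside the collagen gene lay 6 of 10 intervals in epithelium and 19 of 25 in mesenchyme, where 77.1% and 76.0% of all annotated intervals were inside a listed gene. Within 5 kb of the start lay 2 of 10 in epithelium and 3 of 25 in mesenchyme (20% and 12.0%), where 20.6% and 23.6% of annotated intervals were within 5 kb of any listed start. Both of these collagen shares count the collagen gene alone, whereas the shares of all annotated intervals count any listed gene. CpG islands were overlapped by 0 of 10 and 1 of 25, where 4.2% and 8.45% of all annotated intervals did so.

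Most collagen intervals of the epithelium were also found in mesenchyme. Of the 10 epithelium intervals, 8 overlapped a mesenchyme interval by at least 1 bp (80%, Wilson 95% interval 49.0 to 94.3%), where 87.4% of annotated epithelium intervals did. Of the 25 mesenchyme intervals, 8 overlapped an epithelium interval (32%, 17.2 to 51.6%), where 28.7% did. Both lists were also cut to their upper 50%, with overlap counted between the cut lists alone. Shared were then 3 of 16 collagen intervals of the mesenchyme (18.8%), where 29.8% of all were, and 3 of 4 of the epithelium, where 90.5% of all were. The epithelium partners of Col5a1, Col11a2, Col22a1 and the weaker Col27a1 interval lay outside the upper 50%, so these pairs were not counted. The Col25a1 pair was not counted because its mesenchyme interval lay outside. The Wilson intervals cover counting error only. The 8 pairs belonged to 7 genes, with 2 pairs at Col27a1, and their peak centres lay 0 to 160 bp apart. In epithelium the 8 shared intervals had peak values of 16 to 69 and the 2 others 14 and 18. In mesenchyme the 8 shared intervals had 32 to 138 and the 17 others 17 to 56, so the ranges overlapped.

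At the 8 shared intervals the median log2 ratio of peak values, epithelium over mesenchyme, was −1.02, and over all 2083 annotated pairs it was −0.97. The lowest ratio was at Col11a2 (−1.39), followed by Col22a1 (−1.36), Col5a1 (−1.11), the strong Col27a1 interval (−1.04), Col28a1 (−1), Col5a2 (−0.88) and the weaker Col27a1 interval (−0.67). At Col25a1 it was 0.21, and 2.98% of all pairs had a higher ratio. Any scaling between the libraries, which is not stated, would shift all of these ratios alike. With average values in place of peak values the median over the 8 pairs was −0.62, over all pairs it was −0.58, and the order changed. The lowest average-value ratios were then at Col22a1 (−0.80), Col28a1 (−0.68) and Col11a2 (−0.66), while Col25a1 (0.33) still had the highest.

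**Figure D4:**
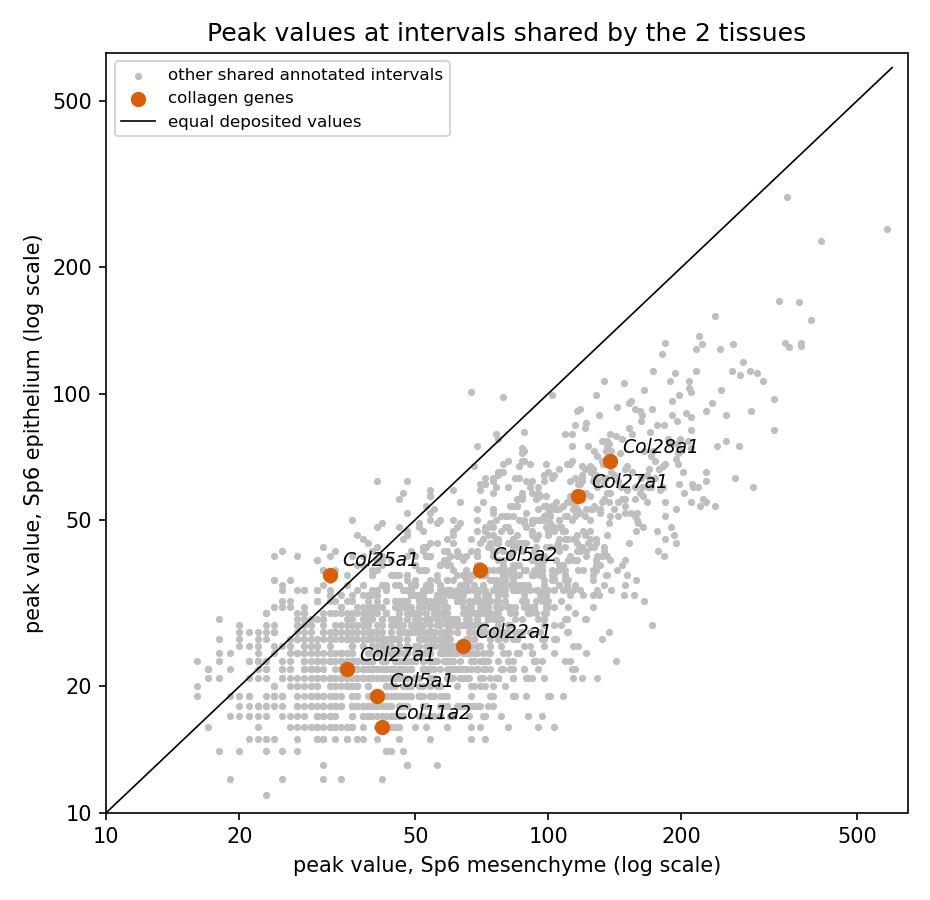
Deposited peak value in epithelium (y axis, log scale) and in mesenchyme (x axis, log scale) at the intervals shared by both tissues, with the 8 collagen pairs in orange, the other shared annotated intervals in grey and a line where the deposited values are equal. Of the collagen pairs, 7 lie below the line among the grey points, and Col25a1 (37 in epithelium, 32 in mesenchyme) lies above it. Of all 2083 annotated pairs, 113 were higher in epithelium.

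The type I genes, not members here, are given for comparison. In epithelium each had 1 interval within 5 kb of the start, with a peak value of 16 at Col1a1 and 42 at Col1a2. In mesenchyme Col1a1 had 8 intervals, 4 of them within 5 kb of the start, with peak values of 14 to 33. All 3 Col1a2 intervals of the mesenchyme, with peak values of 21 to 117, lay within 5 kb of the start. No test was made of this difference from the other collagens, of whose 25 mesenchyme intervals 3 lay that near. Gene lengths were not matched.

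Genes that act on collagen were also occupied. Of 44 such genes in 5 groups, 8 had an interval in epithelium (18.2%) and 18 in mesenchyme (40.9%), where 8.92% and 21.4% of protein-coding genes had one. The same shares of all genes stand beside the counts of each group below. These 44 genes were not matched for length, with which the share of occupied genes rises, and no test was made. Among 17 genes for hydroxylation and folding of collagen chains, 2 and 6 had an interval. Plod2, a lysyl hydroxylase, peaked at 25 in epithelium and at 78 in mesenchyme, 4.282 and 4.298 kb upstream of its start. P4ha1, a catalytic subunit of prolyl 4-hydroxylase, had 23 in epithelium and 72 in mesenchyme, 4.745 and 4.713 kb upstream. P3h2, a prolyl 3-hydroxylase, had 54 in mesenchyme alone, past the gene and 150.91 kb from its start.

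The 8 genes for cleavage of procollagen had intervals at 3 members in epithelium and 5 in mesenchyme. Pcolce2, an enhancer of procollagen C-proteinase, had peak values of 69 in epithelium and 88 in mesenchyme inside the gene, and Pcolce, its paralogue, had 41 in mesenchyme alone. Adamts2, a procollagen N-proteinase, had 32 in epithelium and 63 in mesenchyme inside the gene. Of the 5 cross-linking genes of the lysyl oxidase family, 1 and 2 had an interval, and Loxl4 had 32 in epithelium and 68 in mesenchyme. Loxl2 had 39 in mesenchyme alone.

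Of the 6 collagen receptors, 2 had an interval in epithelium and 3 in mesenchyme. Itga2, an integrin subunit, had 61 in epithelium and 117 in mesenchyme inside the gene, 39.817 and 39.849 kb from the start. Ddr2, a receptor tyrosine kinase for fibrillar collagens, had 100 in mesenchyme alone, Itga11 had 38 in mesenchyme alone, and Itga1 had 19 in epithelium alone, past the gene. The 8 fibril-binding genes had an interval at 0 members in epithelium and at 2 in mesenchyme, Dcn (decorin) with a peak value of 73 and Lum (lumican) with 16.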

How the data were processed

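Sp6 and input ChIP-seq libraries were analysed for each of 2 tissues, 1 library per group, grouped by sample title. The submitters' processing notes name MACS 1.3.7.1 and the build mm9; the aligner, thresholds, scaling, read totals and use of the inputs are not stated in the sources used. Per the file headers, the deposited signal columns hold the peak value and the average value of each interval over bins of about 32 bp, and the other deposited columns hold positions, distances and counts of listed genes and CpG islands. Peak values are the authors' own and were used to describe and rank intervals within a library. The tables list genes from 10 kb upstream to past the gene end. Exons and introns were not assigned, because no mm9 annotation was used here.

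Starts are printed counted from 1. An overlap of 1 bp or more made intervals of the 2 tissues shared. Names were matched to RefSeq symbols and synonyms (assembly GRCm38.p6), 1930 of 2239 in epithelium and 4627 of 5391 in mesenchyme to protein-coding genes. The reference gave names, gene lengths and sequences. Shares of collagen genes were set beside all protein-coding genes and beside genes of the same length class, with no test. Alternatives were the upper 50% of intervals, equal interval numbers, intervals inside genes only, intervals off input, synonyms, overlap of 50%, windows of 1 and 10 kb, and average values. All occupied members are named, and pathway genes by up to 3 highest mesenchyme values per group. Members and lists were chosen with earlier results of these data known. Overlap was tested on simulated data. Python 3.11.15, pandas 2.3.3 and SciPy 1.17.1 were used.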

Additional observations from a re-analysis of the deposited data

How the results depend on the processing

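Of 27 recomputed values, 21 kept within 1.5 times the count, or within the counting interval of the share or median, and 6 moved. In the upper 50% of intervals by peak value, the collagen genes with an interval fell to 4 in epithelium, where 4.72% of protein-coding genes had one. In both tissues they fell to 4 as well, and no share of all genes was taken for that count. Col5a1, Col11a2 and Col22a1 were lost from both counts. In mesenchyme 13 collagen genes had an interval, where 12.1% of protein-coding genes did. Overlap was counted between the cut lists alone, so partners outside the upper 50% did not count. The share of collagen intervals of the mesenchyme that were shared was then 18.8%, within the counting interval around the 32% of the full lists, and more than 1.5 times lower. At equal numbers of intervals, 7 collagen genes had an interval in mesenchyme, where 8.57% of protein-coding genes did. Of the intervals near a gene start, counted within 5 kb, a window of 1 kb kept 1 for epithelium and 1 for mesenchyme, and a window of 10 kb took in 6 for mesenchyme. The gene counts were the same with synonyms. Leaving out intervals on input could not change them, because no collagen interval touched one. With intervals inside the gene alone, 5 collagen genes had an interval in epithelium and 12 in mesenchyme, where 6.07% and 13.8% of protein-coding genes did. No paired analysis was possible because each group holds 1 library. With no replicates and an unknown depth, an absent interval is not evidence of absent binding.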

Other observations

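Some intervals with no listed gene lay within 100 kb of collagen intervals. An interval shared by both tissues lay past Col25a1, in epithelium (chr3:130349023-130349671) and in mesenchyme (chr3:130348914-130349724), 39.2 and 39.1 kb from the last Col25a1 interval of the mesenchyme. Another shared interval lay upstream of Col2a1 in epithelium (chr15:97859460-97859830) and in mesenchyme (chr15:97859243-97859948), 28.0 and 27.8 kb from the nearest Col2a1 interval of the mesenchyme, so the epithelium had an interval near Col2a1 although the table lists none for it. Mesenchyme alone had 2 more near Col2a1 and 1 near Col6a3. Peak values are known for annotated intervals only.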
